A study of Cynodon dactylon with 6 samples.

Results

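Leaf RNA of bermudagrass (Cynodon dactylon), a C4 grass grown for lawns and grazing in warm climates, was compared between seedlings held at 42 °C for 12 h and seedlings held at 42 °C for 2 h. Each heat time had 2 RNA sequencing libraries, and no control library entered the test. The unit of measurement was the unigene, a gene-level group of assembled transcripts, with an ID made of a component and a gene number. Of 111743 unigenes in the deposited table, 25001 passed a filter on low read counts in these 4 heat libraries, and these 25001 are the members described here. All libraries came from leaves of wild-type seedlings 10 days old. The other group of the study, controls labelled 0 h with no heat treatment, also had 2 libraries and is used here only as an outside point of comparison. No unheated library at 2 h or 12 h is among the samples, so the length of the heat and the time of sampling cannot be told apart. The labels do not say whether replicates came from separate plants or from pools, so the p-values rest on library-to-library spread alone, which may be technical.

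As background, heat unfolds proteins, and plant cells answer within minutes through heat shock transcription factors, which switch on genes for chaperones such as the heat shock proteins. That first wave is known to decline when enough chaperone has been made to bind the factors again, while longer heat brings acclimation, changes in hormone and redox genes, and often a loss of photosynthesis. Leaf messenger RNA of a C4 grass such as bermudagrass is usually rich in a few photosynthetic transcripts, among them those for light-harvesting proteins and for carbon fixation. Nothing in the files links a unigene ID to a gene name, so no unigene is assigned to any of these groups, and leaf marker genes were not analysed here.

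The 12 h libraries held 8257637 and 9326726 reads, and the 2 h libraries 7209018 and 7364816. At these depths a unigene without reads could still be present at the level of 3 reads, which is 0.257 to 0.527 CPM. CPM here means reads scaled to a common library size after correction by the trimmed mean of M-values (TMM), a method that sets libraries level on the bulk of their unigenes. Between 98.5% and 99.2% of the reads of a heat library fell on the 25001 tested unigenes.

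Between 2 h and 12 h of heat unigenes moved in both directions, in almost equal number under the scaling used. At 12 h 5604 unigenes were higher and 5578 lower than at 2 h, together 44.7% of those tested, 22.4% rising and 22.3% falling (quasi-likelihood test of edgeR, adjusted p under 0.05 by Benjamini-Hochberg). The median log2 fold change was 1.27 among the unigenes that rose (quartiles 0.82 and 1.95) and -1.23 among those that fell (quartiles -1.85 and -0.79). The level of every called unigene differed without overlap between the 2 libraries at 12 h and the 2 at 2 h, and the same absence of overlap held for 74.0% of all tested unigenes, against 44.7% called. These are levels of messenger RNA in a whole leaf relative to the bulk of unigenes, not shares of all reads. Fewer cells of a type and less RNA per cell cannot be told apart in them.

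The changes were often large. At least 2-fold differences were estimated for 3613 rises and 3456 falls (14.5% and 13.8% of the unigenes tested), at least 4-fold for 1322 and 1192, at least 8-fold for 487 and 452 (1.95% and 1.81%) and at least 16-fold for 201 and 183. With the test set against a 2-fold change instead of against no change (edgeR's glmTreat), 1556 rises and 1837 falls passed. The strong rises started low: the 487 unigenes up by 8-fold or more had a median level of 4.40 CPM at 12 h and 0.263 CPM at 2 h. Only 173 of these reached 10 CPM at 12 h, 40 reached 100 CPM and 1 reached 1000 CPM. The strong falls began from a higher level: the 452 unigenes down by 8-fold or more had a median of 1.59 CPM at 12 h and 27.0 CPM at 2 h. Of these, 294 had stood at 10 CPM or more at 2 h, 143 at 100 CPM or more and 30 at 1000 CPM or more. Among the 487 rises 60 had no read at 2 h, and with these set to the bound that 3 reads over the group allow, 446 still reached 8-fold. Rises with some reads at 2 h, but fewer than 3 over the group, kept their estimates, so 446 is an upper count for that bound. Of the 452 falls 14 had no read at 12 h, and all 452 reached 8-fold at the bound.

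**Figure D1:**
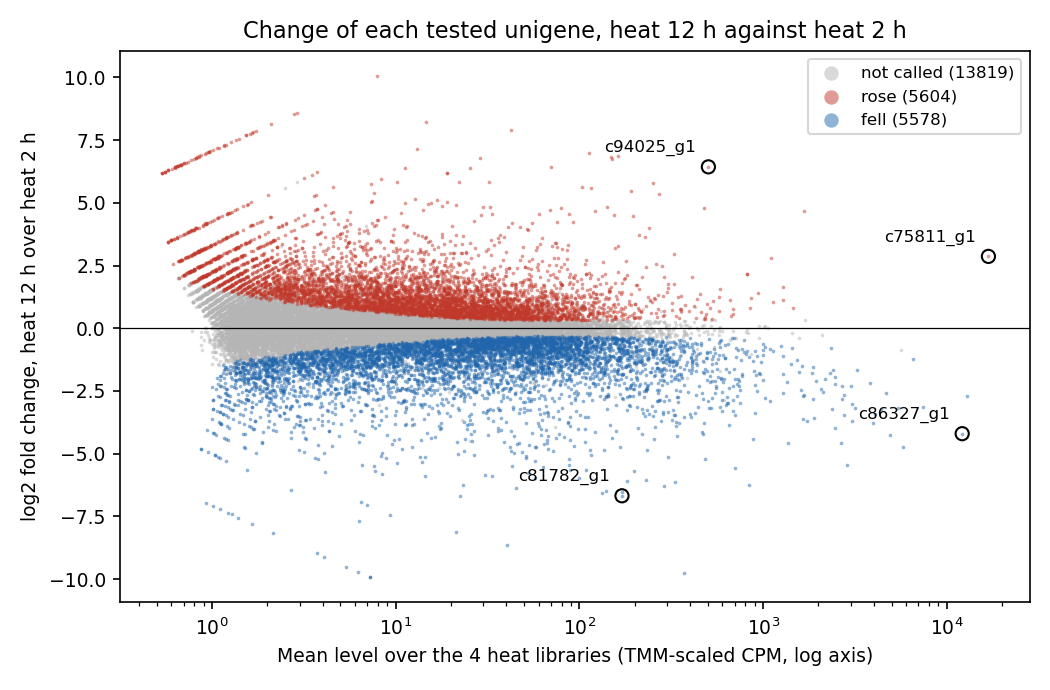
Log2 fold change of heat 12 h over heat 2 h (vertical axis) against the mean level over the 4 heat libraries in TMM-scaled CPM (horizontal log axis), 1 point per tested unigene, coloured by call: 5604 rose, 5578 fell and 13819 were not called. The stripes at the lowest levels are unigenes with no or very few reads at 1 of the times, the circles mark the 4 named unigenes, and the most abundant unigenes lie mostly below 0, apart from c75811_g1.

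How rises and falls balanced depended on the scaling of the libraries. TMM set factors of 1.21 and 1.25 for the 12 h libraries and of 0.790 and 0.837 for the 2 h libraries, and the log2 fold changes of all tested unigenes then had a median of 0.05. With library totals as the only scaling this median was higher by 0.60 on the log2 scale, and 81.2% of the called unigenes were higher at 12 h, 12074 of 14870, in place of 50.1%. Limma on log2(FPKM + 1), values the authors had scaled to totals, tested a larger set of 48926 unigenes and gave 81.6% higher. The DESeq2 Wald test on the 25001 unigenes of the main test called 3345 higher and 4448 lower, so that 42.9% were higher.

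The distance between the times can also be given without any call, as the percentage of reads that lie on different unigenes in a pair of libraries. A 12 h and a 2 h library differed in the placing of 34.6% to 38.2% of their reads. The 12 h replicates differed in 7.77% of theirs and the 2 h replicates in 7.32%, so every pair across the times lay farther apart than either replicate pair. The 2 h libraries stood 20.6% to 22.9% from the controls and the 12 h libraries 41.3% to 41.9%. Medians over unigenes also set the difference between the times against that between replicates. Among the 13578 unigenes with at least 10 CPM at either heat time, the median absolute log2 difference was 0.58 between the times, 0.15 between the 12 h replicates and 0.17 between the 2 h replicates. Of these unigenes 7766 were called, 57.2%, against 44.7% of all tested.

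Which unigenes rose and which fell went with how abundant they were in unheated leaves. The tested unigenes were ranked by their mean level in the control libraries, which the comparison does not use. In the placing of reads the controls were nearer to the 2 h libraries (20.6% to 22.9% apart) than to the 12 h ones (41.3% to 41.9%). A rank taken from them can therefore also favour 2 h being the higher. Of the 100 most abundant in the controls, none was called higher at 12 h than at 2 h by edgeR and 93 were called lower, 87 of them by at least 2-fold, 67 by at least 4-fold, 30 by at least 8-fold and 11 by at least 16-fold. Their median log2 fold change was -2.54 (quartiles -3.18 and -1.71). The other 7 were not called, with log2 fold changes between -1.71 and 0.02. At an unadjusted p below 0.05 edgeR had 0 of the 100 higher and 96 lower. At an adjusted p under 0.05 DESeq2 called 0 higher and 95 lower, and limma on log2(FPKM + 1) 1 higher and 85 lower. Of the 900 next in rank, 76 were higher and 634 lower, with a median of -0.91. Of the 9000 after those, down to rank 10000, 1843 were higher and 2953 lower, with a median of -0.13. Among the 15001 unigenes below rank 10000 the balance was the other way, with 3685 higher and 1898 lower and a median of 0.28. This class, 15001 of the 25001 tested, held 467 of the 487 rises of 8-fold or more and 192 of the 452 such falls. A unigene that is low in the controls can pass the filter through 1 heat time alone, as did the 60 of these 487 rises without a read at 2 h. The median of all 487 at 2 h was 0.263 CPM, below the 0.527 and 0.487 CPM of 3 reads in the 2 h libraries. Most of the 487 thus passed through the 12 h libraries, and the count of strong rises in this class depends on the filter.

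The order of the class medians was the same under the 3 scalings run, but the class at which they crossed 0 was not. With library totals alone the medians were -1.94, -0.32, 0.47 and 0.88 in the same order, 3 of the 100 most abundant were called higher and 90 lower, and the 9000 unigenes down to rank 10000 turned to 4730 higher and 1348 lower. When edgeR used the size factors of DESeq2, the medians were -2.58, -0.95, -0.17 and 0.24. Ranked by length-adjusted level in the controls (mean FPKM, the authors' reads scaled to unigene length and library size), 1 of the first 100 was higher and 93 lower, with a median of -2.67. Ranking by the heat libraries changed the size. Ranked by the mean log2 CPM of the 4 heat libraries, 9 of the first 100 were higher and 76 lower (median -1.61), ranked by the 2 h libraries 1 and 93 (median -2.28), and ranked by the 12 h libraries 32 and 47 (median -0.38). A rank taken from 1 of the heat groups favours that group being the higher, and a rank from the controls, which lie nearer to 2 h, can favour 2 h.

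**Figure D2:**
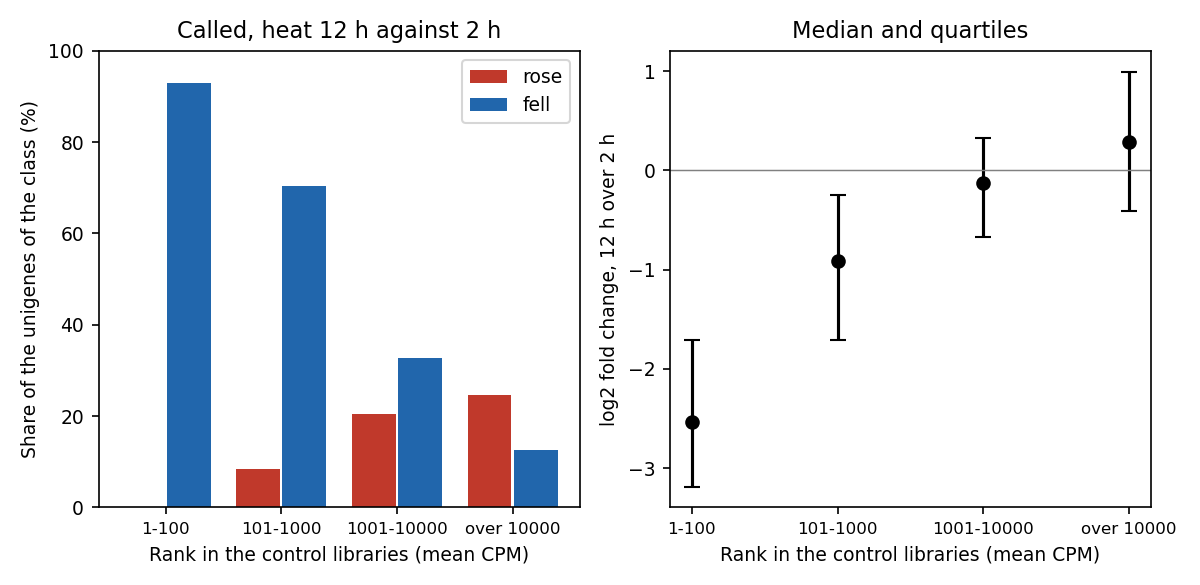
Left, the share of unigenes that rose (red) and fell (blue) between 2 h and 12 h of heat, in percent of the tested unigenes of each abundance class, ranked by mean CPM in the control libraries. Right, the median (point) and quartiles (bars) of the log2 fold change of heat 12 h over heat 2 h in the same classes, from -2.54 in ranks 1 to 100 to 0.28 below rank 10000, with TMM scaling.

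Reads were spread over more unigenes at 12 h than at 2 h. Each library's own 100 most abundant unigenes held 16.3% ± 1.23 of its reads at 12 h and 28.8% ± 2.03 at 2 h (SD, n = 2 each). The shares of classes ranked by the controls, given next, show how far reads moved from the control order and do not measure spread by themselves. The 100 most abundant of the controls took 7.98% and 7.33% of the reads in the 12 h libraries, against 28.5% and 25.7% in the 2 h libraries. The next 900 held 26.4% and 25.2% at 12 h, against 25.5% and 25.4% at 2 h. These are shares of library totals, in which that class kept its place, while relative to the bulk of unigenes 634 of its 900 members fell. The 9000 after those held 51.5% and 52.8% of the reads at 12 h, against 38.3% and 40.5% at 2 h, and all lower ranks 12.8% and 13.2% at 12 h, against 6.93% and 7.42% at 2 h. In each class except the 900 of ranks up to 1000 the 12 h and 2 h libraries did not overlap. With 2 libraries against 2 there are 6 possible splits, of which a two-sided exact permutation test always counts at least 2, so that this test cannot reach a p under 0.05, and library values are given with their spread and no test.

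The unigenes called as falling held 64.8% ± 0.909 of the reads in the controls, 64.9% ± 2.59 at 2 h and 30.7% ± 0.711 at 12 h (SD, n = 2 each). Those called as rising held 9.29% ± 0.241, 8.51% ± 0.259 and 30.6% ± 0.974 at the same times. The gap between 2 h and 12 h follows from how these unigenes were chosen. The controls did not take part in the choice, and in them the fallers held nearly the share they had at 2 h. The 10 most abundant unigenes of each library held 6.58% ± 0.725 of its reads at 12 h and 9.92% ± 0.810 at 2 h, and the 1000 most abundant 41.5% ± 0.949 and 56.9% ± 1.98 (SD, n = 2 each).

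**Figure D3:**
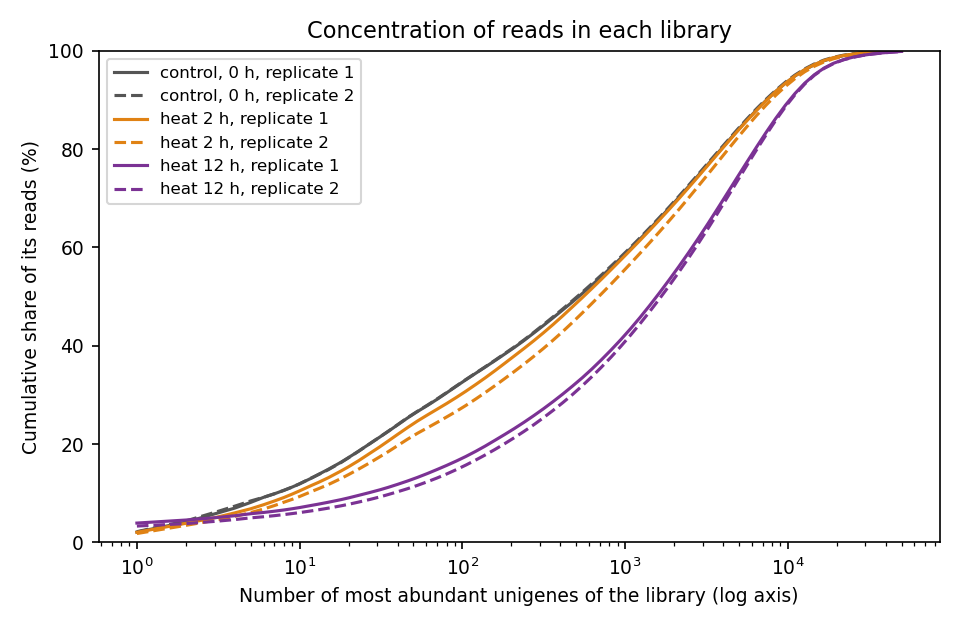
Cumulative share of a library's reads (vertical axis, percent) held by its most abundant unigenes (horizontal log axis, number of unigenes), 1 line per library, with replicate 2 dashed. The 12 h lines run below the 2 h and control lines from the 5 most abundant unigenes on, although the first unigene alone holds 3.63% of the 12 h reads. At the 10 most abundant the 12 h lines stand at 6.58% on average, against 9.92% at 2 h.

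The leading positions changed hands. Only 2 unigenes were among the 10 most abundant both at 12 h and at 2 h, 50 among the 100 most abundant and 627 among the 1000 most abundant. The 10 leading unigenes of the 12 h libraries had a median rank of 58.5 at 2 h, and the farthest had come from rank 1540. All 10 leading unigenes of the 2 h libraries were called lower at 12 h, and so were 93 of the leading 100; a list taken from the 2 h libraries favours a lower level at 12 h. Of the leading 100 at 12 h, ranked here by mean share of the library total and not by TMM-scaled CPM as above, 31 were called as risers and 47 as fallers.

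The largest gain in reads belonged to unigene c75811_g1, which led the 12 h libraries in reads. Its level was 478 and 530 CPM in the controls, 4473 and 3661 CPM at 2 h and 32529 and 26648 CPM at 12 h. Each group lay above the one before with no overlap. Its rank was 28 at 2 h, and its log2 fold change of 12 h over 2 h was 2.86 ± 0.21 (SE; adjusted p = 8.02e-06, edgeR). In the authors' FPKM, which allow for length, it averaged 47146 ± 5408 at 12 h and 4161 ± 445 at 2 h (SD, n = 2 each). The length implied by its count, FPKM and library total was 774 bases, below the lower quartile of 942 bases over all tested unigenes with a length.

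The largest rise in fold among unigenes with at least 10 reads in all 4 heat libraries was that of c94025_g1. It had 110 and 92 reads in the controls, 78 and 58 at 2 h and 9944 and 11595 at 12 h. In CPM these were 15.2 and 18.7, then 13.7 and 9.41, then 995 and 995. The 2 h libraries lay below the controls and the 12 h libraries far above both, nearly equal to each other. The log2 fold change of 12 h over 2 h was 6.43 ± 0.21 (SE; adjusted p = 1.90e-07, edgeR), or 86.3-fold, and the unigene moved to rank 35 at 12 h, against rank 11159 at 2 h. Its implied length was 3721 bases.

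The largest fall in fold under the same read minimum was that of c81782_g1. Its reads numbered 1762 and 1387 in the controls, 2122 and 1863 at 2 h and 35 and 36 at 12 h. The levels were 244 and 283 CPM in the controls, 373 and 302 CPM at 2 h and 3.50 and 3.09 CPM at 12 h. The 2 h libraries stood above the controls and the 12 h libraries about 102-fold below the 2 h ones, with a log2 fold change of -6.68 ± 0.19 (SE; adjusted p = 1.90e-07, edgeR). Its rank was 17956 at 12 h and 485 at 2 h.

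The largest loss in reads was that of c86327_g1, which held the most reads on average over the 2 h libraries, though another unigene led in replicate 2. It stood at 25369 and 28111 CPM in the controls, 26100 and 19849.5 CPM at 2 h and 1336 and 1163 CPM at 12 h. The 2 h libraries overlapped in range with the controls, and the 12 h libraries lay 18.4-fold below 2 h, with a log2 fold change of -4.20 ± 0.22 (SE; adjusted p = 1.37e-06, edgeR). It stood at rank 23 at 12 h. Another unigene of the same component was also among the 25 largest losses, with 434 and 405 CPM at 12 h, against 12611 and 9735 CPM at 2 h (log2 fold change -4.74 ± 0.21 SE, edgeR adjusted p = 5.11e-07). Unigenes of a component can share reads, so these losses are not independent of each other.

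**Figure D4:**
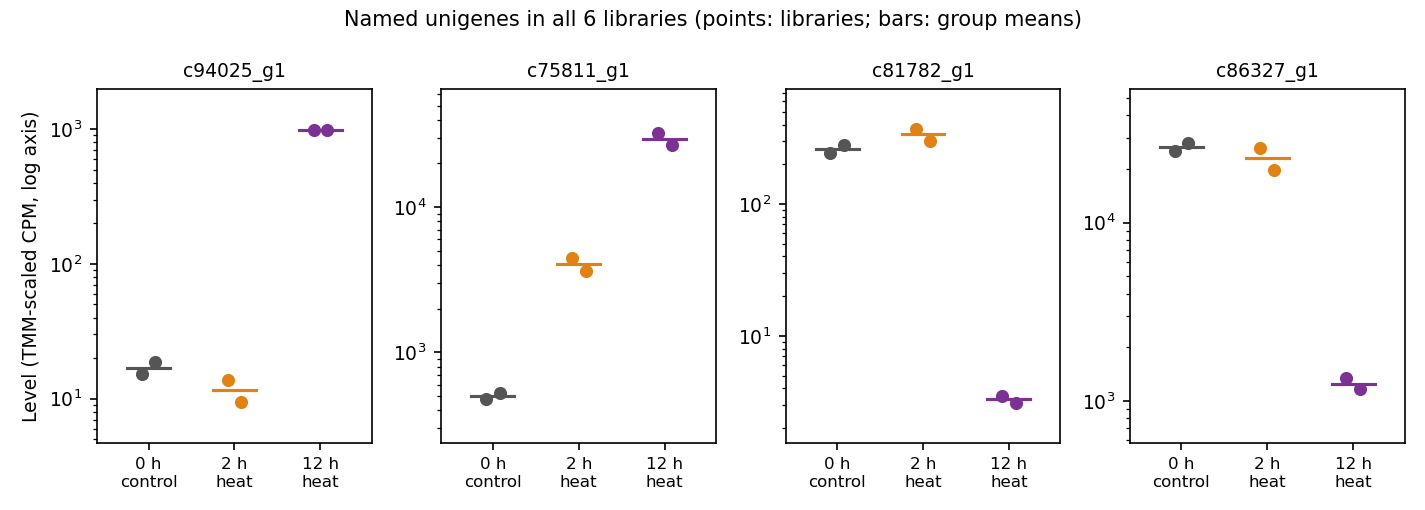
Level of the 4 named unigenes in TMM-scaled CPM (vertical log axes, a different range in each panel) in the controls, at 2 h and at 12 h of heat, with 1 point per library and a bar at the group mean. Points of the 12 h libraries lie apart from those of the 2 h libraries in each panel, and c75811_g1 is the one whose 2 h points lie above the controls and whose 12 h points lie above both.

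The 25 unigenes with the largest gains in CPM and the 25 with the largest losses were also described as sets. They were chosen by the change itself, so their shares are a description. The 25 gainers held 0.582% ± 0.00999 of the reads in the controls, 0.949% ± 0.0600 at 2 h and 6.98% ± 0.721 at 12 h (SD, n = 2 each). Without c75811_g1 the other 24 held 0.543% ± 0.00776, 0.619% ± 0.0269 and 3.35% ± 0.290. Their log2 fold changes ran from 0.79 to 6.43 with a median of 2.15, and the gains from 384 to 25522 CPM. For 16 of the 25 both controls lay below both heat times, for 4 they overlapped the 2 h libraries, for 3 they lay between the times and for 2 they overlapped the 12 h libraries. Only 1 of the 25 was among the 100 most abundant at 2 h, and 20 were at 12 h.

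The 25 losers held 17.6% ± 0.481 of the reads in the controls, 16.2% ± 1.49 at 2 h and 3.09% ± 0.1005 at 12 h (SD, n = 2 each). Their log2 fold changes ran from -5.46 to -1.22 with a median of -3.18, and the losses from 3406 to 21725 CPM. All 25 were among the 100 most abundant at 2 h and 16 were still so at 12 h. For 12 of them both controls lay above both heat times, for 6 they overlapped the 2 h libraries and for 7 they lay between the times, so that for these 7 both 2 h libraries stood above the controls and both 12 h libraries below them.

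Few unigenes were read at 1 heat time only. With at least 10 reads in each library at 12 h and none at 2 h there were 85, and 60 of them passed the abundance filter, which they met through the 12 h libraries alone. Their median level at 12 h was 1.35 CPM, and with the 2 h libraries at the floor of 3 reads over the group the median bound was 5.29-fold. The one with the highest bound had 129 and 219 reads at 12 h and 0 and 0 reads at 2 h, which is at least 63.5-fold higher, with 0 and 2 reads in the controls. In the controls 35 of the 85 had no read and 31 had a read in both libraries. The opposite set, read at 2 h and not at 12 h, numbered 14, with a median level of 3.78 CPM at 2 h and a median bound of 27.4-fold. The 2 sets are not cut at the same level, because equal read numbers stand for a lower CPM at 12 h. The lowest level was 0.929 CPM in the first set and 1.85 CPM in the second, and the lowest bounds were 3.65-fold and 13.4-fold. Their counts and bounds are therefore not directly comparable. The one with the highest bound had 0 and 0 reads at 12 h and 81 and 91 reads at 2 h, which is at least 104.7-fold lower, with 150 and 79 reads in the controls. None of the 14 was without control reads, and 7 had at least 10 reads in each control. Both counts rest on all 4 libraries being required: leaving out 1 library gave 159 to 282 unigenes for the first set and 21 to 64 for the second. Counts of 0 and the bounds cover counting error only.

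The control libraries show where each change led. The positions were counted for called unigenes only, so no share over all tested unigenes stands beside them. For 2042 of the 5604 rises the controls overlapped the 2 h libraries and not the 12 h ones, so that only at 12 h was the level apart from the control range. For 1278 both controls lay below both heat times, with levels in the order control, 2 h and 12 h, and for 1557 they lay between the times, above 2 h and below 12 h. For 442 the controls overlapped the 12 h libraries and not the 2 h ones, a return to the control range, and for 256 they lay above both times. Median log2 fold changes of 12 h over 2 h were 1.54, 1.12, 1.34, 0.95 and 0.71 in the same order. A further 29 rises overlapped both times.

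For falls the most frequent position of the controls was another. For 1857 of the 5578 falls both controls lay above both heat times, so that 12 h was the lowest. For 1366 the controls lay between the times, below 2 h and above 12 h, and for 1113 they overlapped the 2 h libraries only. They overlapped the 12 h libraries only for 620 and lay below both times for 602, and 20 overlapped both. Among the falls of 8-fold or more the controls lay above both times for 187 of 452, between them for 133 and at the 2 h level for 86. Among the rises of 8-fold or more they overlapped the 2 h libraries for 269 of 487, lay between the times for 141 and below both for 64. The median levels of these 487 were 0.263 CPM at 2 h and 0.517 CPM in the controls, where a few reads decide an overlap. The difference between rises and falls was not tested, because the classes join groups that share libraries. By group means alone, without regard to overlap, the most frequent position for rises was another: 2949 had the controls between the times, 2234 below both and 395 above both, and for 26 the means at 2 h and in the controls were equal. For falls the means gave 2407 above both, 2284 between and 887 below both. With library totals alone 3336 of 12074 rises had the controls below both times, and 917 of 2796 falls had them above both. Leaving out heat 2 h replicate 1 or heat 2 h replicate 2 gave 161 or 115 rises with the controls above both times, in place of 256, and 382 falls with the controls below both, in place of 602, when heat 2 h replicate 1 was left out.

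**Figure D5:**
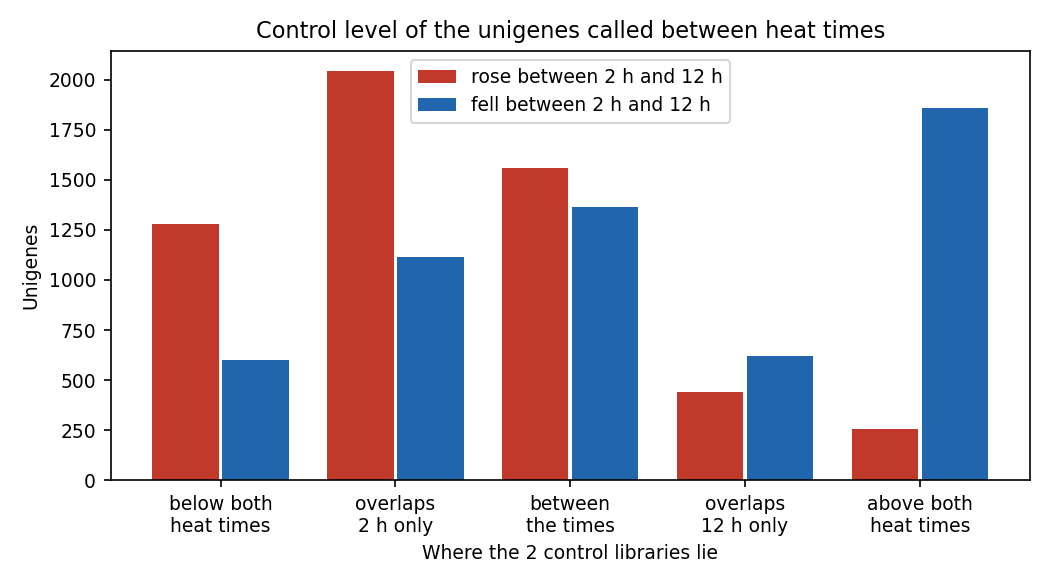
Number of unigenes (vertical axis) that rose (red) or fell (blue) between 2 h and 12 h of heat, by where the 2 control libraries lie relative to the libraries of both heat times (horizontal axis). The largest group of rises, 2042, has controls overlapping the 2 h libraries, and the largest group of falls, 1857, has controls above both heat times, while unigenes whose controls overlapped both times are not drawn.

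Called unigenes of the same component mostly moved together. Of 3361 components with several tested unigenes, 1003 had at least 2 called. In 361 of these all called members rose, in 496 all fell, and in 146, or 14.6%, members moved in opposite directions. When changes of at least 2-fold were required of each member, 62 of 618 components held both directions, 10.03%. Without heat 2 h replicate 1 the number with opposite directions was 60, and without heat 2 h replicate 2 it was 74, in place of 146. Members of a component may share reads, so their agreement is not independent evidence. Over all tested unigenes 5604 rose and 5578 fell, and agreement between unigenes of different components was not counted.

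Rising unigenes had a higher median implied length than falling ones. The files do not state lengths, but count, FPKM and library total imply one, and 96.0% of such values lay within 10% of their unigene's median where at least 100 reads stood behind them. This is the length on which the FPKM rest, and whether it is the full length of a unigene is not stated. For c25105_g1 it was only 75.8 bases. The median implied length was 1538 bases among 3743 rises (quartiles 1007 and 2280), 1310 bases among 4044 falls (quartiles 859 and 1915) and 1425 bases over 14047 of all tested unigenes. The other unigenes had no library with 100 reads and no length here. The median was higher for rises in each abundance class of the controls that held both: 1784 and 1684 bases for rises and falls among the 900 of ranks up to 1000, 1750 and 1305 bases for the 9000 after those, and 1349 and 925 bases below rank 10000. In this last class lengths exist for 1824 of 3685 rises and for 382 of 1898 falls, and the read minimum can be met there through the change itself. With a minimum of 20 reads the medians were 1311 bases for rises and 1119 bases for falls. Lengths are given as a description with no test.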

How the data were processed

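RNA sequencing libraries of leaves, 2 at 12 h and 2 at 2 h of heat, were compared, and 2 control libraries served as an outside reference point. The authors deposited estimated counts, unscaled reads per unigene, of which 99.3% of the values above 0 are whole. A second deposited table holds FPKM, the same reads divided by length and library size by the authors. DESeq 1.18.0, HTSeq 0.6.1, TopHat2 2.0.12 and Bowtie2 2.2.3 are listed, per the submitters' processing notes, without saying what each did; how unigenes were assembled and counted is not given in the sources used here. Columns were matched to samples by name; the count sheet is named for another grass, tall fescue.

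Counts were rounded, filtered with filterByExpr (minimum count 10, minimum total 15) on the 4 heat libraries, scaled by TMM and fitted with edgeR 4.0.16 in R 4.3.3 (robust quasi-likelihood, 2 residual degrees of freedom, median prior 7.02). The common dispersion corresponds to a coefficient of variation of 0.148. Standard errors are the absolute log2 fold change over the square root of F. Control CPM use TMM over all 6 libraries. Alternatives used DESeq2 1.42.0 and limma 3.58.1. The procedure was tested on simulated data, where more calls were false than the threshold states when few unigenes were changed, so calls may be less certain than it states. Whether the false calls lay near the threshold was not examined. Members, rules and tests were chosen with earlier results of these data known. Without names for the IDs, the naming rule took 2 rises and 2 falls: among called unigenes without overlap, the largest fold with at least 10 reads in each heat library, and the largest change in mean CPM. The planned gene lists need names and were not tested. Total reads per heat library ran from 7209018 to 9326726. Floors and bounds cover counting error only, while SD and SE also hold the spread between libraries. Near-identical gene copies may share reads, and strandedness is not stated, which leaves single unigenes uncertain.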

Additional observations from a re-analysis of the deposited data

How the results depend on the processing

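Called unigenes, 11182 with 5604 rises, numbered 7571 to 9279 when 1 heat library was left out, with 65.9% to 78.7% of the 11182 called again in the same direction, none with a changed sign, and 6228 in all 4 such fits, and 11809 were called with all 6 libraries in the fit; where 1 library stands alone it is assumed to vary like the other group. The 4 named unigenes kept their direction and call in every alternative run. The balance of 50.1% rises turned with DESeq2's size factors (47.5%), DESeq2 (42.9%), edgeR without robust estimation (49.8%) and without single libraries (46.7% to 49.7%). It was 81.2% with library totals and 81.6% with limma on log2(FPKM + 1) and on log2(FPKM + 0.1). Rises of 2-fold or more, 3613, were 7949, 9237 and 9639 in these last fits, 2340 with at least 10 reads in each heat library and 1556 with glmTreat. Falls of 2-fold or more, 3456, were 1708, 2025, 2086 and, with glmTreat, 1837. Both limma fits tested 48926 unigenes, against 25001 in the main fit and with library totals, so their counts come from a larger set. The cause was not tested beyond the shift of all unigenes by the scaling.

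The median log2 fold change of the 100 most abundant unigenes, -2.54, was -1.94 with totals, -1.91 with both limma fits, -2.43 without a filter and -2.43 with at least 10 reads in each library, and -2.64 to -2.38 without single libraries. Ranked by mean log2 CPM of the heat libraries it was -1.61, by their mean CPM -1.81, by 2 h -2.28, by 12 h -0.38 and by control FPKM -2.67. The share of the 100 most abundant, 16.3% at 12 h and 28.8% at 2 h, was 15.4% to 17.1% and 27.4% to 30.3% in single libraries, 6.58% and 9.92% for the top 10, 41.5% and 56.9% for the top 1000, and 12.7% at 12 h without the first unigene. At 10 reads 26413.5 unigenes were detected at 12 h and 21709 at 2 h, and single libraries gave 61103 to 63431 and 49268 to 52806 with 1 read.

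Unigenes read at 12 h only, 85, were 19 at a minimum of 20 reads, 360 at 5 and 159 to 282 without single libraries; those read at 2 h only, 14, were 7, 43 and 21 to 64. Components with opposite directions, 146, were 62 at 2-fold and 60 to 104 without single libraries. Implied lengths of 1538 and 1310 bases for rises and falls became 1311 and 1119 at 20 reads. Rises with controls below both times, 1278, were 2234 by means, 3336 with totals and 1033 to 1095 without single libraries; those with controls above both, 256, were 395 by means and 115 to 198 without single libraries. Falls with controls above both, 1857, were 917 with totals and 1498 to 1635 without single libraries, and those below both, 602, were 382 to 598. The rank by control FPKM, the totals for the control position, and the fits without single libraries for library values, unigenes read at 1 time only, components and control position were chosen after seeing the data.

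Replicate numbers pair no samples by the labels. Log2 deviations of same-numbered libraries correlated at r = 0.33 between 12 h and 2 h across unigenes, on 2 pairs only. With the replicate number as a block 13754 unigenes were called, 6962 of them rises, and the block changed the call of no named unigene. Depth limits unigenes under about 0.5 CPM.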

Other observations

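More unigenes were detected at 12 h than at 2 h. At least 1 read was found for 62267 ± 1646 unigenes at 12 h and 51037 ± 2502 at 2 h (SD, n = 2 each), and at least 10 reads for 26414 ± 709 and 21709 ± 574. Thinned to the smallest total of the heat libraries, the numbers with a read were 59739 ± 507 at 12 h and 50907 ± 2318 at 2 h. The libraries of the times did not overlap in any of these counts, and they are given without a test, since an exact permutation test of 2 against 2 libraries cannot reach a p under 0.05.

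The agreement of replicates was close to even between the times. Counts of replicates differed by 7.98 times the sampling variance at 12 h and by 6.42 times at 2 h (chi-square per degree of freedom), so neither pair is 1 library deposited in duplicate.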
